A study of Homo sapiens with 6 samples.

Results

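The genes that make, break down, anchor and read the cyclic nucleotides cAMP and cGMP were followed in HMEC-1 cells after knockdown of the lysine methyltransferase SETD7. The members were chosen by gene symbol, as the phosphodiesterases (PDE followed by a number and a letter from A to D), the adenylyl cyclases (ADCY), the subunits of soluble guanylyl cyclase (GUCY1), the subunits of cAMP-dependent protein kinase (PRKAC and PRKAR), the cGMP-dependent kinases (PRKG), the numbered A-kinase anchoring proteins (AKAP) and the numbered Rap exchange factors (RAPGEF). The rule itself uses no measured value, but it was set with earlier results of these data known. It gave 51 of the 18544 genes counted, and all 51 passed the filter on low counts.

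HMEC-1 is an immortalised line derived from human dermal microvascular endothelium, grown here at 5.5 mM glucose. All 6 cultures had received a lentivirus that carries an shRNA. In 3 of them (Set7KD) the hairpin targeted SETD7, and in the other 3 (NTC) it targeted no gene. The sources used here do not give the number of hairpins, and a difference that follows from SETD7 loss and one that a hairpin gives in another way cannot be told apart. The comparison asks which transcripts of this signalling system differed between the groups.

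cAMP is made by adenylyl cyclases, which are switched on or off by G proteins below hormone receptors, and cGMP is made by soluble guanylyl cyclase, the receptor for nitric oxide, and by membrane cyclases that bind natriuretic peptides. Phosphodiesterases hydrolyse one messenger or both and so set how far and how long each signal runs. cAMP acts mainly through protein kinase A (PKA), which anchoring proteins hold at particular places in the cell, and through the Epac proteins, which activate the small GTPase Rap1. In endothelium cAMP is known to tighten cell junctions and cGMP to act in nitric oxide signalling.

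Depth ran from 16385878 to 16953331 gene counts per library. Levels are given as CPM, that is, counts set to the same total of gene counts in each library, with totals adjusted by TMM, and 1 count was worth 0.0585 to 0.0618 CPM. SETD7 itself stood at 180, 178 and 176 CPM in NTC and at 27.8, 43.8 and 26.7 CPM in Set7KD (log2 fold change -2.44, standard error 0.21, edgeR adjusted p = 0.000927). The exact two-sided permutation p was 0.1, the smallest that 3 libraries against 3 allow. Of 12 endothelial markers fixed for the check of the line, 10 were measured, including CDH5, TIE1 and TEK. Of these 10, 2 were called higher and 4 lower in Set7KD, a share of 60% beside 36.2% of all tested genes. PECAM1 and CLDN5 were not analysed here. The summed level of those 10 markers lay between 516 and 660 CPM in NTC and between 412 and 451 CPM in Set7KD.

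Of the 51 members, 8 were higher and 8 were lower in Set7KD at an edgeR adjusted p under 0.05, which is 31.4% of them. Over all 18482 genes tested, 36.2% were called, 17.6% higher and 18.6% lower, so the members were called about as often as genes in general. The median log2 fold change was -0.04 over the members and -0.01 over all tested genes. For 19 members (37.3%) the highest library of one group lay below the lowest of the other, against 47.4% of all tested genes. The 16 called members were all among these 19. These calls come from a fit of the group alone. With the replicate number added as a block, 9 members were higher and 11 lower, 39.2% against 42.8% of all tested genes. PDE3A and PDE2A, the 2 called members that differed by 2 times or more, moved in opposite directions, and AKAP5 and PDE4C bring to 4 the called members that differed by 1.5 times or more. PDE1C differed by 1.62 times and was not called. Among the 16, absolute log2 fold changes ran from 0.19 to 1.08.

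**Figure D1:**
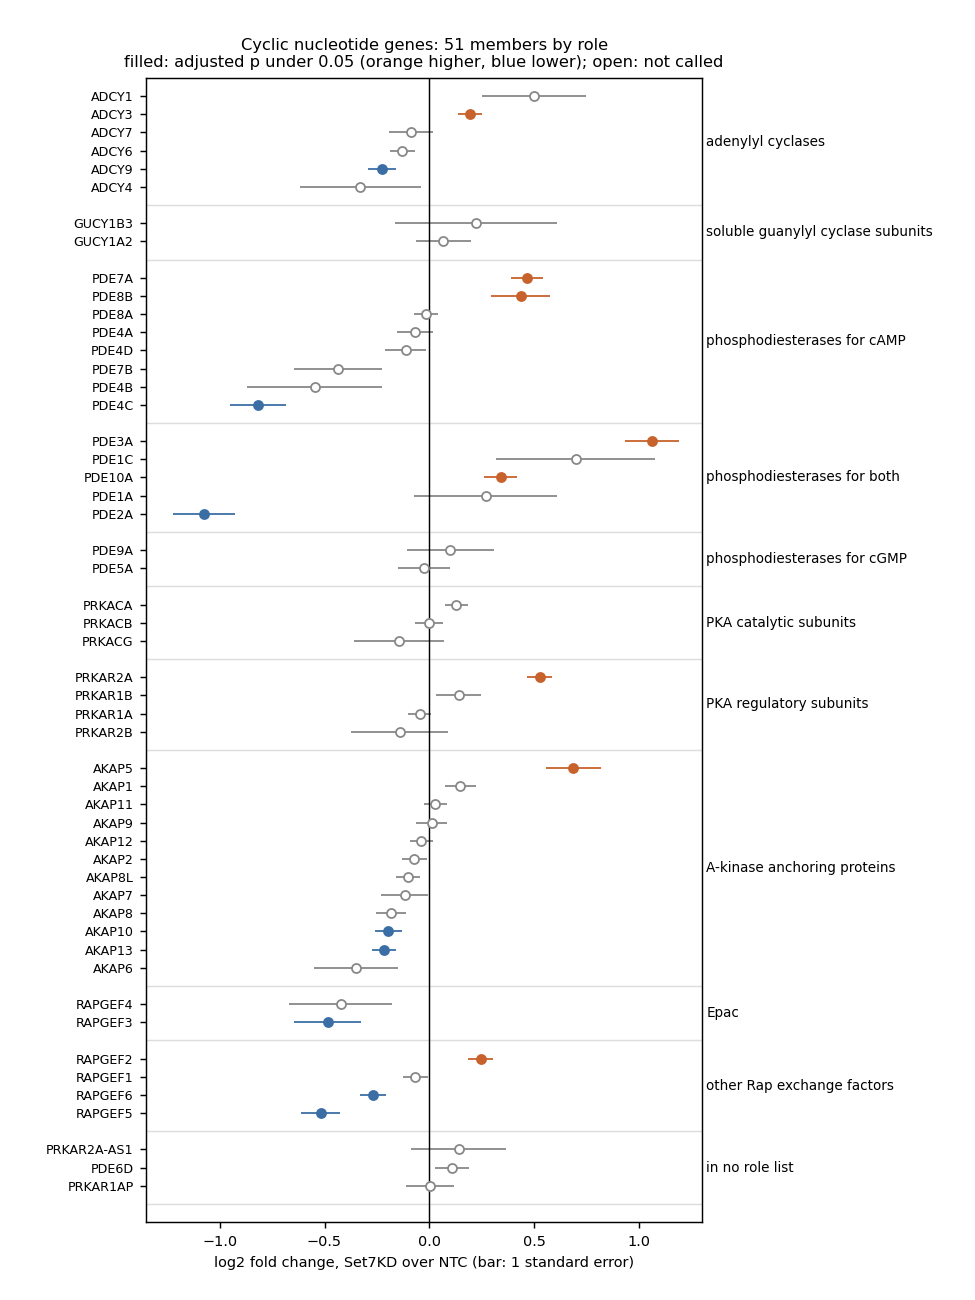
The log2 fold change of Set7KD over NTC (x axis) is plotted for each of the 51 members (y axis), grouped by role, with a bar of 1 standard error. Filled points mark the 16 members with an edgeR adjusted p under 0.05, 8 higher (orange) and 8 lower (blue), and the largest changes are those of PDE3A at 1.06 and PDE2A at -1.08.

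The phosphodiesterases held the largest differences, and these went both ways within 1 family. Of 15 genes for phosphodiesterases that hydrolyse cyclic nucleotides, 4 rose (PDE3A, PDE7A, PDE8B and PDE10A), 2 fell (PDE2A and PDE4C) and 9 did not pass. The called share of these 15 was 40%, against 36.2% of all tested genes. Their median log2 fold change was -0.01. PDE3A (ENSG00000172572.6) encodes an enzyme that degrades cAMP and is inhibited by cGMP, and is known from heart, platelets and vascular smooth muscle. Its level was 4.80, 5.18 and 5.56 CPM in NTC replicates 1, 2 and 3 and 12.1, 9.64 and 10.7 CPM in Set7KD replicates 1, 2 and 3. Every Set7KD library lay above every NTC library, at a fold of 2.09 (log2 fold change 1.06, standard error 0.13, edgeR adjusted p = 1.71e-05). PDE2A (ENSG00000186642.9), whose product is instead stimulated by cGMP and is known from endothelium, went the other way. It stood at 8.36, 8.73 and 6.67 CPM in NTC and at 3.87, 3.40 and 3.98 CPM in Set7KD. The groups did not overlap and the level fell by 1.08 on the log2 scale (standard error 0.15, adjusted p = 5.18e-05). Per kilobase of exon, PDE3A was at 0.570 ± 0.124 times the level of PDE2A in NTC and at 2.46 ± 0.194 times in Set7KD (SD, n = 3 each), so their order reversed.

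PDE10A, whose product hydrolyses both messengers, rose from 28.3 ± 0.930 to 35.8 ± 3.23 CPM (SD, n = 3, adjusted p = 0.00336). PDE1C, an enzyme activated by calcium and calmodulin, had uneven control values. Its level was 22.2, 16.0 and 40.3 CPM in NTC and 47.1, 41.6 and 38.7 CPM in Set7KD. NTC replicate 3 lay inside the Set7KD range and the other NTC libraries lay well below it. PDE1C did not pass, with a log2 fold change of 0.70 (standard error 0.38, adjusted p = 0.236), and without NTC replicate 3 the log2 fold change was 1.15 with an adjusted p of 4.3e-05. PDE1A was low, at 0.965 ± 0.380 CPM in NTC and 1.17 ± 0.413 CPM in Set7KD (adjusted p = 0.574).

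Among the 8 phosphodiesterases specific for cAMP, 2 rose and 1 fell, a share of 37.5% beside the 36.2% of all tested genes. PDE4C, a member of the family inhibited by rolipram, was at 22.1, 22.4 and 17.2 CPM in NTC and at 10.5, 14.0 and 10.4 CPM in Set7KD. The groups did not overlap, and the log2 fold change was -0.82 (standard error 0.13, adjusted p = 0.000354). PDE7A, which rolipram does not inhibit, was at 26.0, 30.3 and 27.3 CPM in NTC and at 36.7, 40.1 and 38.8 CPM in Set7KD. Its log2 fold change was 0.47 (standard error 0.08, adjusted p = 0.000235), again without overlap. PDE8B rose from 4.57 ± 0.559 to 6.18 ± 0.395 CPM (adjusted p = 0.0253). Its call was lost without NTC replicate 1 (adjusted p = 0.116), NTC replicate 2 (0.0564) or Set7KD replicate 1 (0.0992), and by DESeq2 (0.0816). PDE8A, the closest relative of PDE8B, had 81.2 ± 2.98 CPM in NTC and 80.5 ± 3.21 in Set7KD (log2 fold change -0.01, standard error 0.06, adjusted p = 0.875).

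PDE4B depended on how the replicate numbers were treated. This gene, itself known to be induced by cAMP, was at 80.5, 101 and 50.4 CPM in NTC and at 52.3, 63.1 and 42.9 CPM in Set7KD. The groups overlapped, because NTC replicate 3 lay below 2 of the 3 Set7KD libraries. Each Set7KD library nevertheless lay below the NTC library with the same number, at 65.0%, 62.6% and 85.2% of it. PDE4B did not pass (log2 fold change -0.55, standard error 0.32, adjusted p = 0.271), but it passed as lower with the replicate number added to the fit as a block (log2 fold change -0.52, adjusted p = 0.000209) and without NTC replicate 3 (log2 fold change -0.78, adjusted p = 0.0302). The remaining cAMP-specific genes PDE4A, PDE4D and PDE7B had log2 fold changes of -0.07, -0.11 and -0.44 and did not pass. Without Set7KD replicate 2, PDE4D and PDE7B had adjusted p of 0.0249 and 0.045.

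The 2 cGMP-specific phosphodiesterases measured did not pass. PDE5A, the target of sildenafil, had 8.57 ± 0.948 CPM in NTC and 8.42 ± 0.614 in Set7KD (SD, n = 3, adjusted p = 0.89), and PDE9A had 3.26 ± 0.879 and 3.48 ± 0.666 CPM (adjusted p = 0.742).

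To compare levels between genes, CPM were divided by the merged exon length of each gene. On this scale PDE8A and PDE4B were the most abundant of the 15 in NTC, with 25.9% and 22.1% of their summed level, and PDE8A and PDE4B still came first in Set7KD, with 26.6% and 15.8%. PDE7A went from a share of 9.43% to 13.5%, PDE1C had shares of 4.88% and 7.98%, PDE3A went from 1.55% to 3.35%, PDE4C from 7.85% to 4.62% and PDE2A from 2.76% to 1.36%. The summed length-scaled level of the 15 genes was 39.9 ± 3.20 CPM per kilobase in NTC and 38.5 ± 1.68 in Set7KD (SD, n = 3), a difference smaller than the spread in NTC. That of the 4 PDE4 genes was 18.2 ± 3.43 in NTC and 13.6 ± 1.63 in Set7KD. NTC replicate 3, at 14.6, lay within the Set7KD range of 12.0 to 15.2.

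**Figure D2:**
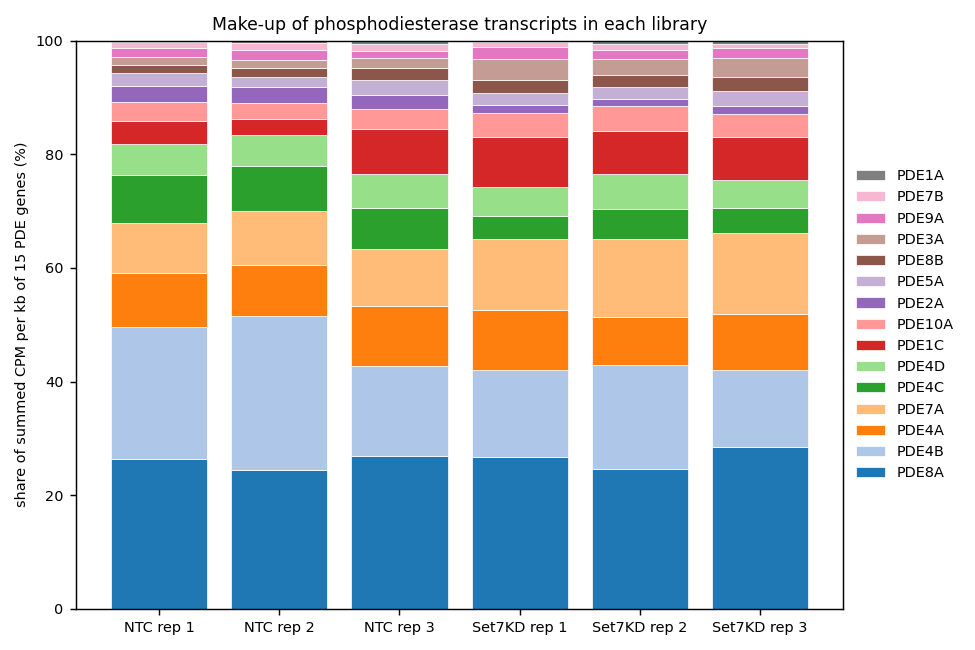
Each bar is 1 library (x axis) and shows the share (y axis, percent) of every phosphodiesterase gene in the summed CPM per kilobase of the 15 genes. PDE8A keeps about the same share in all 6 libraries, PDE4B is widest in NTC replicates 1 and 2 at 23.4% and 27.0%, and the PDE7A and PDE3A segments are wider in each Set7KD library than in any NTC library.

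Several markers of other vessel wall cells also differed between the groups. The 11 smooth muscle and pericyte markers measured summed to 396 to 439 CPM in NTC and 772 to 1058 CPM in Set7KD. By edgeR 6 of the 11 (54.5%) were called higher, against 17.6% of all tested genes. ACTG2 rose from 0.941 ± 0.514 to 26.4 ± 7.32 CPM, CNN1 from 0.979 ± 0.484 to 9.16 ± 1.86 CPM, TAGLN from 96.3 ± 16.8 to 551 ± 116 CPM and MYOCD from 0.705 ± 0.405 to 1.71 ± 0.305 CPM, and LMOD1 and NOTCH3 rose by 1.62 and 1.24 times. CSPG4, ACTA2, PDGFRB, RGS5 and MYH11 did not pass. The 8 fibroblast markers measured summed to 1588 to 2146 CPM in NTC and 3293 to 4248 CPM in Set7KD. Of these 8, 5 were called higher and 1 lower, a share of 75% beside 36.2% of all tested genes. COL1A1 made up most of the sum, at 1555 ± 270 CPM in NTC and 2861 ± 395 CPM in Set7KD. The others called higher were COL1A2, COL3A1, POSTN and PDGFRA, which rose by 4.91, 6.66, 5.65 and 1.78 times. PDPN was the marker called lower, and LUM and THY1 did not pass. The smooth muscle myosin gene MYH11 stood at 10.6 ± 1.58 CPM in NTC and 9.54 ± 0.720 in Set7KD, and DES and DCN were not analysed here. The part of these markers in the rise of PDE3A, the fall of PDE2A or the differences of the other members was not tested. In RNA from whole cultures, fewer cells of a kind and less RNA per cell cannot be told apart.

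Of the 6 adenylyl cyclases measured, 1 rose and 1 fell, a share of 33.3% beside the 36.2% of all tested genes. ADCY3, best known from olfactory signalling and the primary cilium, was at 128, 120 and 120 CPM in NTC and at 144, 131 and 145 CPM in Set7KD. The groups did not overlap but lay close together, at a fold of 1.14 (log2 fold change 0.19, standard error 0.06, adjusted p = 0.0149). ADCY9, a widely expressed cyclase that responds poorly to forskolin, fell from 53.4 ± 2.80 to 45.7 ± 2.60 CPM (SD, n = 3, adjusted p = 0.0159). Both calls were lost without some libraries. For ADCY3 these were Set7KD replicate 1 (adjusted p = 0.07) and Set7KD replicate 3 (0.0516), and for ADCY9 NTC replicate 1 (0.0975) and Set7KD replicate 3 (0.0593). ADCY6, a cyclase inhibited by calcium, had 127 ± 8.52 CPM in NTC and 116 ± 3.66 in Set7KD (adjusted p = 0.101), and passed as lower with the replicate block (adjusted p = 0.0387) and without NTC replicate 3 (0.0225). ADCY7 had 33.5 ± 3.48 and 31.5 ± 4.58 CPM (adjusted p = 0.545).

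ADCY3 and ADCY6 together made up most of the length-scaled level of the cyclases. ADCY3 held 45.3% of it in NTC and 51.0% in Set7KD, and ADCY6 33.7% and 30.5%. The ratio of ADCY3 to ADCY6 was 1.34, 1.28 and 1.42 in NTC and 1.66, 1.61 and 1.76 in Set7KD, so that it was higher in every Set7KD library. The summed level of the 6 cyclases was 44.7 ± 1.84 CPM per kilobase in NTC and 45.3 ± 2.14 in Set7KD. ADCY1 and ADCY4 stayed under 3 CPM in each library and did not pass, although ADCY4 had an adjusted p of 0.0477 without NTC replicate 3 and ADCY1 of 0.0421 without Set7KD replicate 2.

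Soluble guanylyl cyclase works as a dimer of an alpha and a beta subunit. The alpha subunit gene GUCY1A2 had 9.95 ± 1.52 CPM in NTC and 10.4 ± 1.31 in Set7KD (adjusted p = 0.727). The beta subunit gene GUCY1B3 was barely detected, with 10 to 28 counts per library and 0.925 ± 0.387 and 1.08 ± 0.561 CPM (adjusted p = 0.687). The standard errors were 0.13 for GUCY1A2 and 0.39 for GUCY1B3 on the log2 scale, so the GUCY1B3 estimate is the less precise. No PRKG row entered the analysis, so the kinases that cGMP activates were not analysed here.

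The transcripts of the regulatory subunits of PKA differed in composition between the groups, while no catalytic subunit gene passed the test. These are RNA counts, and protein was not measured. Inactive PKA holds a pair of catalytic subunits on a pair of regulatory subunits, and cAMP binding to the regulatory subunits frees the kinase. Type II regulatory subunits are the ones that anchoring proteins mainly hold. PRKAR2A (ENSG00000114302.11), the gene of the widely expressed type II alpha subunit, was at 102, 96.4 and 109 CPM in NTC and at 152, 140 and 151 CPM in Set7KD. The groups lay far apart relative to their spread (log2 fold change 0.53, standard error 0.06, edgeR adjusted p = 8.81e-06), the smallest adjusted p of the 51 members. PRKAR1A (ENSG00000108946.8), the type I alpha subunit gene and the most abundant of the 4, was at 329, 347 and 332 CPM in NTC and at 328, 342 and 306 CPM in Set7KD. Those groups overlapped (log2 fold change -0.05, standard error 0.06, adjusted p = 0.539). Per kilobase of exon, the ratio of PRKAR2A to PRKAR1A was 0.320, 0.285 and 0.337 in NTC and 0.476, 0.419 and 0.508 in Set7KD. PRKAR2A thereby made up 22.5% of the regulatory subunit transcript level in NTC and 30.0% in Set7KD, and PRKAR1A 71.8% and 64.2%. PRKAR1B had 16.0 ± 2.39 and 17.6 ± 0.752 CPM (adjusted p = 0.332), and PRKAR2B stayed under 2 CPM.

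PRKACA, the main catalytic subunit gene, was at 148, 144 and 139 CPM in NTC and at 158, 164 and 148 CPM in Set7KD. The lowest Set7KD library lay just above the highest NTC library. PRKACA did not pass (log2 fold change 0.13, standard error 0.06, adjusted p = 0.0795), and passed as higher with the replicate block (adjusted p = 0.0259) and without Set7KD replicate 3 (0.0376). PRKACB had 36.4 ± 1.27 and 36.3 ± 0.975 CPM (log2 fold change -0.00, standard error 0.07, adjusted p = 0.975). PRKACG, an intronless gene close in sequence to PRKACA, did not pass either, and its 1.98 to 3.67 CPM are uncertain since reads of its relatives could have been counted there. The same holds for the pseudogene PRKAR1AP, which matched the symbol rule and had 14.2 CPM in each group.

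The symbol rule also took in PRKAR2A-AS1, a transcript that starts next to PRKAR2A on the opposite strand. In the RefSeq promoter table (GRCh38.p14, a later build than the hg19 of the counts) the first bases of PRKAR2A and PRKAR2A-AS1 are chr3:48847874 and chr3:48847937, with 62 bases between them. The sequence from one start to the other, chr3:48847874-48847937 on the plus strand, is shown because both transcripts leave from it in opposite directions, and its capitals mark TGACG, the core of the cAMP response element described below.
PRKAR2A and PRKAR2A-AS1: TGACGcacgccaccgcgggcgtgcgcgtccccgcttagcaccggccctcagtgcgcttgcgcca
Only the sense gene passed the test. PRKAR2A-AS1 was at 2.34, 1.99 and 3.10 CPM in NTC and at 3.33, 1.98 and 2.88 CPM in Set7KD (log2 fold change 0.14, standard error 0.23, adjusted p = 0.666). With 32 to 55 counts per library, the log2 fold change of PRKAR2A, 0.53, lies within 2 standard errors of this estimate, so a difference in response between the 2 transcripts was not shown. The sources used here do not say whether the counting separated strands.

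**Figure D3:**
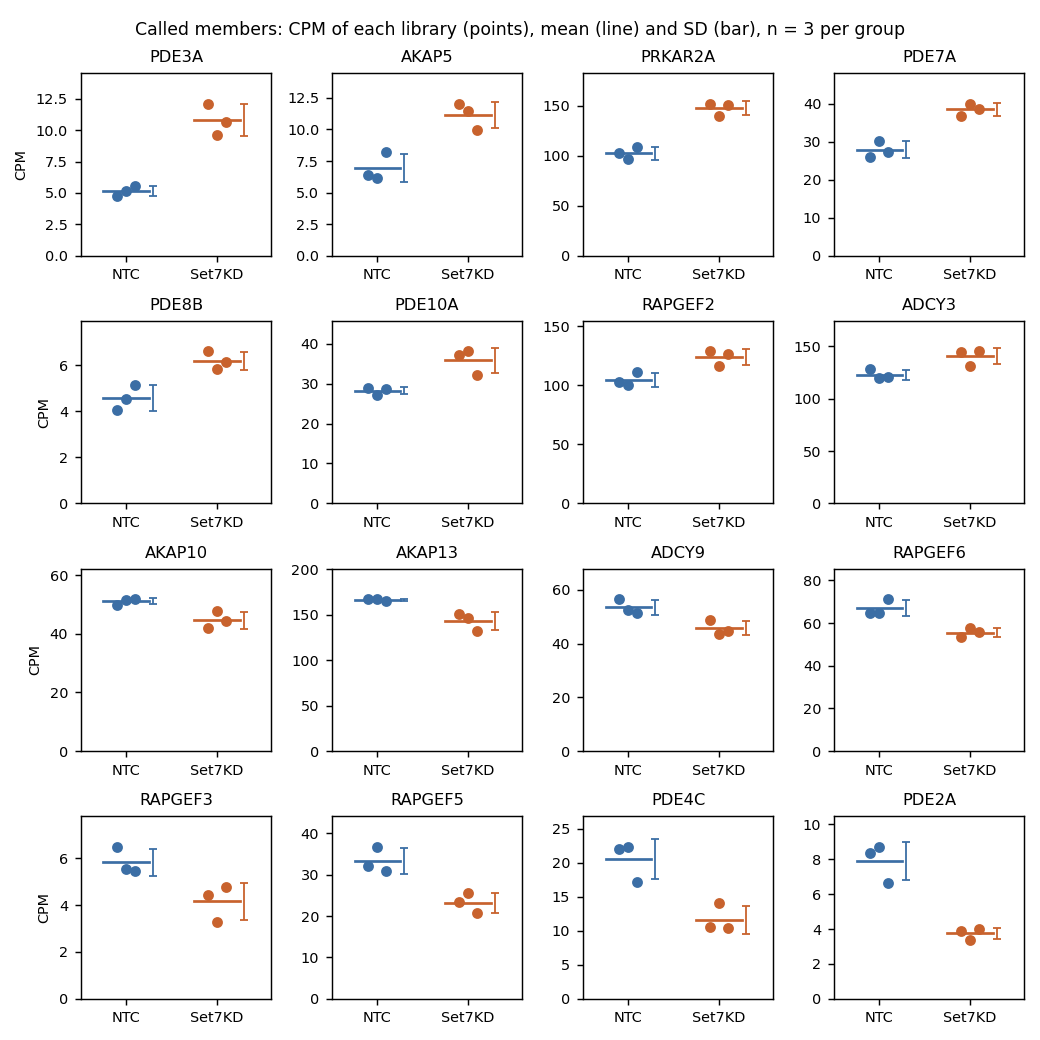
CPM (y axis, from 0) of each library (points) is plotted for the 16 called members in NTC (blue) and Set7KD (orange), with the mean as a line and the SD as a bar (n = 3 per group). No panel has overlap between the groups, and the gap is wide for PDE3A, PRKAR2A and PDE2A and narrow for ADCY3, AKAP10 and ADCY9.

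Anchoring proteins bind the regulatory subunits of PKA and hold the kinase beside its substrates. Of 12 measured, 1 rose and 2 fell, a share of 25% beside the 36.2% of all tested genes. AKAP5 (ENSG00000179841.7), which gathers PKA, protein kinase C and calcineurin at the plasma membrane, was at 6.43, 6.14 and 8.19 CPM in NTC and at 12.0, 11.4 and 9.98 CPM in Set7KD. It rose without overlap, at a fold of 1.61 (log2 fold change 0.69, standard error 0.13, adjusted p = 0.000822). AKAP13, which is also an activator of the GTPase RhoA, was at 167, 167 and 165 CPM in NTC and at 151, 146 and 132 CPM in Set7KD (log2 fold change -0.22, standard error 0.06, adjusted p = 0.00727). The call was lost without Set7KD replicate 3 (adjusted p = 0.0528). AKAP10 fell from 51.1 ± 1.01 to 44.7 ± 2.88 CPM (adjusted p = 0.0299), a call lost by DESeq2 (0.0862) and without any one library other than Set7KD replicate 2 (0.0619 to 0.163).

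The abundant anchoring protein genes did not pass. AKAP12, known as gravin, had 872 ± 25.3 CPM in NTC and 849 ± 41.6 in Set7KD (log2 fold change -0.04, standard error 0.06, adjusted p = 0.622) and held 38.0% and 38.3% of the summed length-scaled level of the 12 genes. AKAP2 had 645 ± 15.3 and 614 ± 45.3 CPM (adjusted p = 0.375). Its counts are not a separate measurement, since the overlapping readthrough gene PALM2-AKAP2 was listed with nearly the same levels, 646 ± 14.7 and 617 ± 45.4 CPM. The other members, AKAP1, AKAP6, AKAP7, AKAP8, AKAP8L, AKAP9 and AKAP11, had log2 fold changes from -0.35 (AKAP6) to 0.15 (AKAP1). Of these AKAP8 passed as lower with the replicate block (adjusted p = 0.0307) and without NTC replicate 3 (0.0215), and AKAP6 without Set7KD replicate 2 (0.0447). AKAP5 thus rose from a low level, with 0.351% of the summed length-scaled level of the 12 genes in NTC and 0.585% in Set7KD.

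Exchange factors for Rap split in direction. Epac1 and Epac2, encoded by RAPGEF3 and RAPGEF4, bind cAMP directly, and Epac1 is known for its part in endothelial barrier function. RAPGEF3 was at 6.49, 5.54 and 5.44 CPM in NTC and at 4.42, 3.28 and 4.78 CPM in Set7KD. The groups did not overlap, and the log2 fold change was -0.49 (standard error 0.16, adjusted p = 0.0271). The call was lost by DESeq2 (adjusted p = 0.0744) and without NTC replicate 1 (0.124), Set7KD replicate 1 (0.0533) or Set7KD replicate 2 (0.113). RAPGEF4 had 3.87 ± 0.717 and 2.88 ± 1.15 CPM with overlap (log2 fold change -0.42, standard error 0.25, adjusted p = 0.203), and 0.0139 without Set7KD replicate 2.

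The other Rap exchange factors measured were RAPGEF1, RAPGEF2, RAPGEF5 and RAPGEF6. RAPGEF5 was at 32.0, 36.8 and 30.8 CPM in NTC and at 23.3, 25.6 and 20.7 CPM in Set7KD, a fall without overlap (log2 fold change -0.52, standard error 0.09, adjusted p = 0.000471). RAPGEF2 and RAPGEF6 encode closely related proteins with a PDZ domain, and they moved in opposite directions. RAPGEF2 rose from 104 ± 5.77 to 124 ± 6.66 CPM (adjusted p = 0.00477) and RAPGEF6 fell from 66.9 ± 3.79 to 55.6 ± 2.10 CPM (adjusted p = 0.00344). Both kept their call in every setting run. RAPGEF1, which acts below receptor tyrosine kinases and was the most abundant of the 6 per kilobase, held 47.1% and 47.0% of their summed level and had 113 ± 4.87 and 108 ± 7.38 CPM (adjusted p = 0.42). Of the accessory genes of the family outside the rule, PDE12, a mitochondrial nuclease despite its name, fell from 32.6 ± 0.413 to 18.3 ± 2.66 CPM and PDE4DIP (myomegalin) rose from 125 ± 17.3 to 178 ± 5.23 CPM (adjusted p = 8.94e-06 and 0.000544). PDE6D does match the symbol rule and is counted among the members. It is named after the retinal phosphodiesterase but carries prenylated proteins, and had 27.1 ± 1.83 and 29.2 ± 1.75 CPM (adjusted p = 0.316).

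The genes around the members were read from lists of the same pathway. Of the receptors with their accessory proteins 28.6% were called, and of the G protein alpha subunits 33.3%. The share of all tested genes was 36.2%. Among 14 receptors that couple to the stimulatory G protein (with their accessory proteins), 2 rose and 2 fell. The adenosine receptor ADORA2A rose from 4.89 ± 0.908 to 8.78 ± 1.23 CPM and the prostaglandin receptor PTGER2 from 3.55 ± 0.966 to 6.75 ± 0.482 CPM (SD, n = 3, edgeR adjusted p = 0.000568 and 0.000741). RAMP1 and CRHR1 fell, from levels of 1.10 and 2.23 CPM, and the CRHR1 call was lost without Set7KD replicate 1 (adjusted p = 0.0524). Of 6 G protein alpha subunits, the inhibitory GNAI3 rose from 185 ± 1.89 to 242 ± 4.47 CPM and the stimulatory GNAL fell from 9.56 ± 0.540 to 6.29 ± 0.630 CPM. GNAS, the main stimulatory subunit gene, had a log2 fold change of 0.01 (standard error 0.05, adjusted p = 0.899). PKIA, which encodes a peptide inhibitor of PKA, fell from 1.01 ± 0.316 to 0.491 ± 0.225 CPM (adjusted p = 0.0483), a call lost without NTC replicate 1 or 2 or Set7KD replicate 1 or 3 (0.0785 to 0.204) and by DESeq2 (0.15). Neither NOS3 nor NPR2, the sources of nitric oxide and of membrane cGMP synthesis that were measured, passed (adjusted p = 0.494 and 0.99). NOS3 was low, at 1.73 ± 0.213 CPM in NTC and 2.05 ± 0.784 in Set7KD. NPR2 had 39.9 ± 1.35 and 40.0 ± 0.772 CPM. The standard errors on the log2 scale were 0.26 for NOS3 and 0.06 for NPR2, so the NOS3 estimate is the less precise.

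Beside the exchange factors, 4 of 14 genes for Rap GTPases and their partners rose and 3 fell. That is 50% of them, against 36.2% of all tested genes. Of the substrates below 40% were called, and of the genes for export, binding and channels 42.9%. RAP1A and RAP1B, the GTPases that Epac activates, rose from 52.8 ± 0.798 to 65.8 ± 2.22 CPM and from 27.6 ± 1.77 to 38.9 ± 1.29 CPM (adjusted p = 0.000585 and 9.69e-05). RASIP1, an endothelial Rap1 effector, fell from 10.5 ± 0.974 to 6.14 ± 0.613 CPM. SIPA1L3, of a family of GTPase-activating proteins, which switch Rap off, fell from 105 ± 6.91 to 55.8 ± 2.51 CPM. SIPA1L1, of the same family, rose from 67.2 ± 2.22 to 75.4 ± 3.99 CPM (adjusted p = 0.0415). Its call was lost by DESeq2 (0.0883) and without any 1 library other than Set7KD replicate 3. RAP1GAP fell from 0.827 to 0.368 CPM, a call lost without NTC replicate 2 or 3 or Set7KD replicate 1 or 3. SIPA1, SIPA1L2 and RAP1GAP2 did not pass (adjusted p = 0.0779, 0.851 and 0.885). Among 5 substrates of PKA and PKG, VASP rose from 48.2 ± 0.661 to 67.5 ± 7.74 CPM and PPP1R12A, a subunit of myosin phosphatase, from 146 ± 7.70 to 182 ± 5.09 CPM, and the other 3 did not pass. Of 7 genes for cyclic nucleotide export, binding and channels, BVES rose from 26.1 ± 1.56 to 39.4 ± 1.13 CPM and the channel genes HCN3 and HCN2 fell (log2 fold changes -0.68 and -0.48). The HCN2 call was lost by DESeq2 (adjusted p = 0.084) and without NTC replicate 1 or 3 or Set7KD replicate 1 or 2 (adjusted p 0.0625 to 0.118).

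At the nuclear end of the pathway, most CREB target genes passed by edgeR with the replicate block and not without it, as PDE4B did. Of 8 CREB factors and coactivators, 1 rose and 2 fell, a share of 37.5% beside 36.2% of all tested genes. CREB1, the factor that PKA phosphorylates, rose from 76.9 ± 3.38 to 86.7 ± 3.30 CPM, and its coactivators CRTC1 and EP300 fell (log2 fold changes -0.31 and -0.15, adjusted p = 0.0102 and 0.0465). The coactivator CRTC3 went the other way and did not pass (log2 fold change 0.17, adjusted p = 0.0532). It passed as higher with the replicate block (0.0324) and with relative log expression and upper-quartile scaling (0.0442 and 0.0431). The CREB1 call was lost without NTC replicate 1 or 3 or Set7KD replicate 1 or 2, the CRTC1 call without NTC replicate 1 or Set7KD replicate 3, and the EP300 call without NTC replicate 1 or 2 or Set7KD replicate 2 or 3 (adjusted p up to 0.178 over the 3 genes). CREB1 and EP300 also missed the threshold by DESeq2 (0.0584 and 0.102), and EP300 with relative log expression and upper-quartile scaling (0.0543 and 0.0512). Of 10 genes known as CREB targets, 0 passed by edgeR, and the median log2 fold change was -0.63. With the replicate block 7 passed as lower, a fit in which 42.8% of all tested genes were called and 22.1% were called lower. The count as lower was 3 at an unadjusted p under 0.05, 4 by DESeq2, 0 by limma-voom and 2 without NTC replicate 3. FOS was at 354, 464 and 183 CPM in NTC and at 111, 128 and 48.6 CPM in Set7KD. Its groups did not overlap, nor did those of DUSP1, ATF3 and FOSB, whereas those of PDE4B did. DESeq2, fitted without the block, called these 4 genes lower (adjusted p 0.00549 to 0.0403) and did not call PDE4B (0.196). DUSP1, ATF3 and FOSB had the same order of libraries within NTC as FOS, with replicate 3 lowest. PDE4B shares that order. These target genes also answer to other stimuli, and the part of NTC replicate 3 in the PDE4B result beyond the values given above was not tested.

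**Figure D4:**
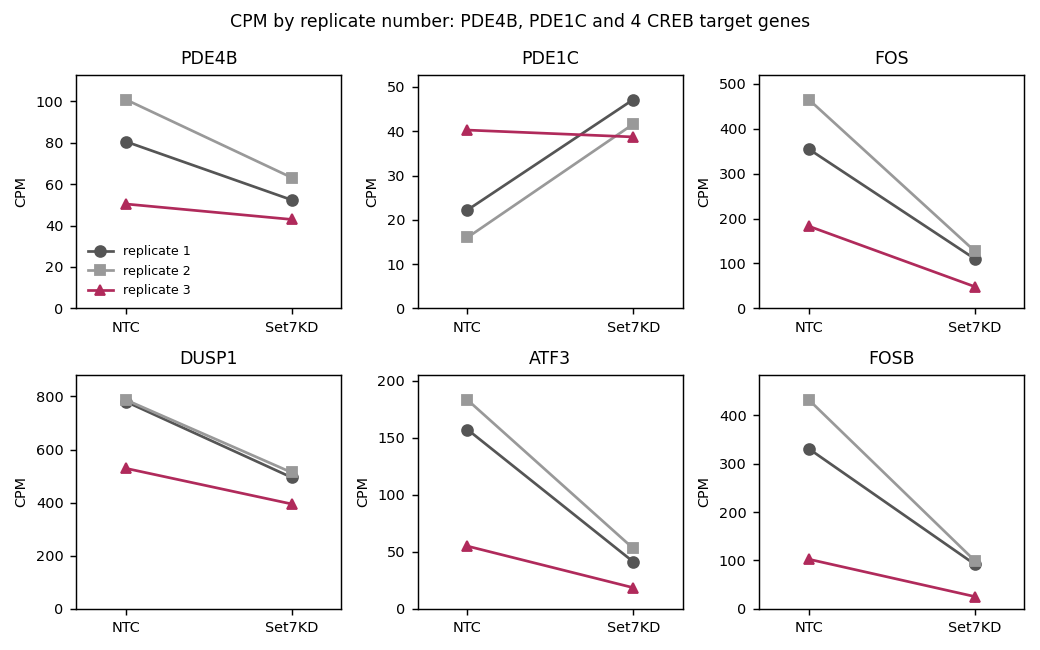
CPM (y axis, from 0) is plotted for PDE4B, PDE1C and 4 CREB target genes in NTC and Set7KD, with a line joining libraries of the same replicate number. The replicate 3 line (red) starts lowest in NTC for PDE4B at 50.4 CPM and for the 4 target genes, and starts highest for PDE1C at 40.3 CPM.

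Promoters of the members were searched for the cAMP response element, TGACGTCA, a palindrome that CREB binds, and for its core TGACG on either strand (each palindrome holds 2 overlapping cores). Windows of 300 bases, 250 before and 50 after an annotated start, were taken from RefSeq (GRCh38.p14) for the 43 members that matched the table. Those without an entry are AKAP2, AKAP8L, ADCY6, ADCY9, PRKAR1AP, PDE7A, PDE9A and PRKACG. The full element was in 4 of 114 member windows (3.51%) and in 1.85% of the 35116 windows of all genes, and the core in 25.4% and 24.6%. Its site in PRKAR1A was counted more than once, because it lies in overlapping windows. The genes with the full element were PDE4A, PDE7B and PRKAR1A, and 0 of the 14 called members with a window had it. Their elements are printed because they are the members' full matches to the element of the pathway's own factor, and capitals mark the element or its core. The stretch shown for PDE4A is chr19:10416683-10416780, that for PDE7B chr6:135851525-135851574 and that for PRKAR1A chr17:68512370-68512399, all on the plus strand. In PDE4A the full element spans the annotated start and further cores lie before it.
PDE4A: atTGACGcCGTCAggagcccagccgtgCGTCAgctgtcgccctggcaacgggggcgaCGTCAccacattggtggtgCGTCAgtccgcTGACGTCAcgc
PDE7B: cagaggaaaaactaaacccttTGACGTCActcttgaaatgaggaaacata
PRKAR1A: gcgaggcgcatTGACGTCAgtagccgaacg
These 3 genes had log2 fold changes of -0.07, -0.44 and -0.05 and did not pass. A match describes the letters of the window and not a bound site, and a window without one says nothing about CREB.

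The rule also covers ADCY2, ADCY5, ADCY8, ADCY10, GUCY1A3, GUCY1B2, PDE1B, PDE3B, PDE6A, PDE6B, PDE6C, PDE11A, PRKG1, PRKG2, AKAP3, AKAP4 and AKAP14, which were not analysed here. Of the 51 members measured, 12 had a mean under 5 CPM over the 6 libraries, and 1 of these 12, RAPGEF3, was called.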

How the data were processed

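RNA from 6 HMEC-1 cultures (3 Set7KD, 3 NTC) was poly-A enriched and sequenced, in biological triplicate per the design text. The deposited table holds whole-number counts of reads per gene, made by the authors on hg19 with BWA and bedtools, per the submitters' processing notes. Versions, the gene annotation, strand use and the handling of reads that map to several places are not given in the sources used here. A row of reads outside genes held 55.6% to 56.1% of each library and was left out of the library sizes. Every gene listed had at least 60 counts over the 6 libraries.

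Counts of all 18544 genes were filtered (filterByExpr), TMM scaled and tested with edgeR 4.0.16 (robust quasi-likelihood test, R 4.3.3), with Benjamini-Hochberg adjustment over the 18482 genes tested and a threshold of 0.05. Standard errors were computed from the log2 fold change and its F statistic. Adjusted p in the text are edgeR's unless another tool is named. They weigh the difference between the groups against the spread within the groups of these 6 libraries. Depth was 16385878 to 16953331 counts per library. Replicates of a group differed beyond counting noise (chi-square per degree of freedom 2.98 to 9.85), so none were merged. Libraries of the same replicate number deviated together, so the numbers appear to pair the samples. Correlations were 0.304, 0.421 and 0.341 over the 11151 genes whose mean reached 10 CPM, against -0.36 to -0.037 for different numbers. This comes from the data, and no label says what a number shares. The main fit had the group only, so calls leave this pairing out unless the block is named. The fit with the number as a block was an alternative. Others were relative log expression and upper-quartile scaling, no filter, a filter of 50 counts, limma-voom (limma 3.58.1), DESeq2 1.42.0, an adjusted p under 0.01 and leaving out each library. The edgeR step was checked on simulated counts.

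CPM were divided by merged exon length (GENCODE 29, all isoforms) to compare genes. This length need not be that of the transcripts present. Named were SETD7, the called members, the 2 most abundant uncalled members of each role, and in each pathway list up to 4 genes with the smallest p. Other members and GNAS were added after their values were seen. The members and lists were chosen with earlier results of these data known. A gene that the naming rule selects is not reported here.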

Additional observations from a re-analysis of the deposited data

How the results depend on the processing

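Counts of members called higher and lower were both 8 with relative log expression scaling, upper-quartile scaling, no filter, the filter of 50 counts (which left 42 members) and limma-voom. They were 7 and 6 by DESeq2. At an adjusted p under 0.01 they were 6 and 5, the count of genes called higher in Set7KD fell to 2103, and that of genes called lower in Set7KD to 2197. Leaving out 1 library gave 6 to 9 members higher and 5 to 11 lower. The 5 came without NTC replicate 1 or Set7KD replicate 3, and the 11 without NTC replicate 3 or Set7KD replicate 2. The cause was not tested. With the replicate block, 9 members were higher and 11 lower (39.2% of them, against 42.8% of all tested genes), all 16 calls remained, and 4 were gained (PDE4B, AKAP8, ADCY6 and PRKACA). Over all genes the block gave 3826 higher and 4090 lower, and the SETD7 adjusted p was 0.00409. The block took no call from any member.

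Over the 13 alternative fits, 10 of the 16 called members kept their call in each: PDE2A, PDE3A, PDE4C, PDE7A, PDE10A, PRKAR2A, AKAP5, RAPGEF2, RAPGEF5 and RAPGEF6. The other 6 (PDE8B, ADCY3, ADCY9, AKAP10, AKAP13 and RAPGEF3) lost it in at least 1, and 11 of the 35 members not called passed in at least 1. No called member changed direction. Depth limits the 12 members with a mean under 5 CPM.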
